A study of Mus musculus with 12 samples.

Results

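The 35 genes described here run the cholesterol economy of the liver cell: 20 enzymes that build cholesterol from acetyl-CoA, and 15 genes that sense, take up, move, store or export it. They were picked by name from the 17432 genes of the deposited count table, and all 35 were found there and had enough reads to test. The livers came from 12 male wild-type C57BL/6J mice (an inbred laboratory strain) aged 8 to 10 weeks, 6 sedentary and 6 exercised. All 12 mice shared a synchronized feeding schedule and treadmill acclimation. On day 4 they were refed, and food was removed before the run. The exercised mice then ran at 14 m/min for 3 hours while the sedentary mice did not run. Both groups were sampled when the run ended, so the values describe whole liver of 1 sex, 1 strain and 1 time point. The comparison asks how the sterol genes of the liver differ right after a bout of aerobic exercise that follows refeeding.

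Cholesterol is made in the endoplasmic reticulum and cytosol along the mevalonate pathway, which joins acetyl-CoA units into isoprenoids, squalene, lanosterol and at last cholesterol. The enzymes are switched on together by the transcription factor SREBP-2, which the escort SCAP carries to the Golgi for cleavage when membrane sterol is low and which the INSIG proteins hold back when sterol is high. Oxidized sterols activate LXR, a nuclear receptor that turns on efflux pumps and the degradation of lipoprotein receptors. In the liver this balance also sets how much cholesterol leaves in lipoproteins and bile.

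Each library held 18745379 to 19324461 estimated counts, with medians of 19228810 in sedentary and 18923302 in exercised livers. Levels are given as CPM, read counts relative to library depth after TMM scaling, which sets aside the most changed and the most abundant genes. Hepatocyte markers were high in every liver, with summed levels of 110313 to 147721 CPM in sedentary and 135048 to 158213 CPM in exercised livers, and 2 of the 7 were higher after exercise, Tat by 1.83 on the log2 scale without overlap and Alb by 0.24 (adjusted p = 1.03e-09 and 0.0253). The 9 Kupffer cell markers did not pass edgeR's test (lowest unadjusted p = 0.0830, C1qa), with sums of 100.4 to 169 CPM against 119 to 180.3 CPM. Among 7 sinusoidal endothelial markers 4 changed, with Lyve1, Pecam1 and Ehd3 higher and Kdr lower (sums of 181 to 235 CPM in sedentary and 199 to 304 CPM in exercised livers). Among 6 stellate cell markers Lrat and Des were lower, and the 6 together summed to 169 to 217 CPM and 160 to 234 CPM. The 5 cholangiocyte markers did not pass the test and summed to 31.4 to 41.7 CPM and 34.1 to 41.5 CPM. Lymphocyte markers summed to 0.816 to 1.80 CPM and 0.821 to 2.38 CPM. The part of these shifts in the sterol genes was not tested, and in whole liver a change in cell numbers and a change in RNA per cell cannot be told apart.

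Exercise changed 21 of the 35 genes (60.0%) by edgeR's quasi-likelihood test, where an adjusted p had to be under 0.05, against 42.4% of the 12344 genes tested. Of these, 17 (48.6%) were lower, where 21.3% of all genes were lower, and 4 (11.4%) were higher, where 21.1% of all genes were higher. The groups did not overlap in 13 genes (37.1%), against 22.3% of all genes tested. The median log2 difference, exercised minus sedentary, was -0.48 over the 35 genes and -0.00 over all genes tested. Scaling by library size alone gave 21 lower and 2 higher sterol genes, and 3735 lower and 1767 higher genes in all, where TMM gave 2626 and 2603. The count of 4 higher genes was 2 without Sedentary replicate 2, 3, 4 or 6, or without Exercise replicate 3 or 5.

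**Figure D1:**
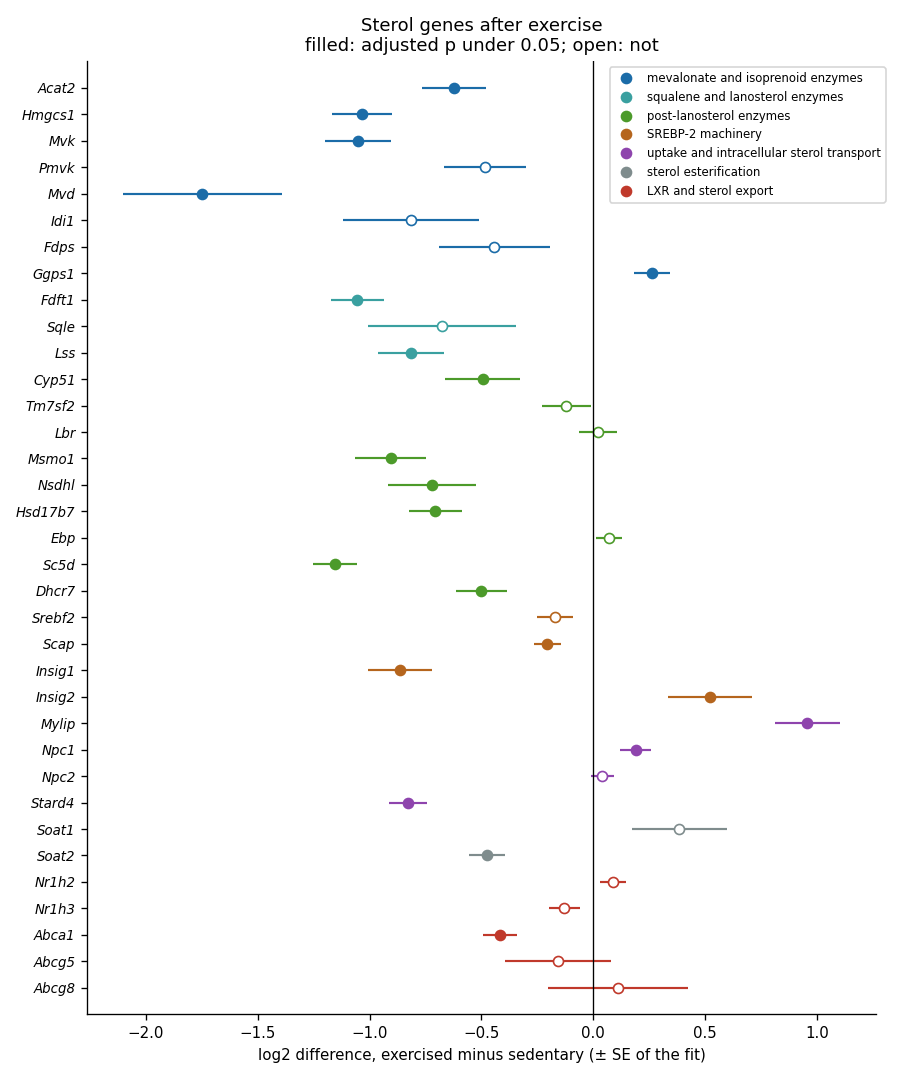
Log2 difference, exercised minus sedentary (x axis), of each of the 35 sterol genes (y axis, grouped by role), with the standard error of the fit; filled points passed the test at an adjusted p under 0.05 and open points did not. Of the 20 enzymes 17 sit left of 0, and the lowest point is Mvd at -1.75.

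The enzymes of cholesterol synthesis made up most of the decrease. Exercise lowered 12 of the 20 enzymes and raised 1, and 17 of 20 had a log2 difference below 0, with a median of -0.69. In 8 enzymes every exercised liver was below every sedentary liver. Together the 20 enzymes summed to 1543.5 to 2570.2 CPM in sedentary livers and 1141.7 to 1393.7 CPM in exercised livers, without overlap. Abundant enzymes weigh most in this sum, and its gap depends on Sc5d, which held 404 to 634 CPM and 207 to 265 CPM of it. With equal weight for each enzyme, the mean log2(CPM + 0.5) against the sedentary mean was -0.398 to 0.424 in sedentary livers. In exercised livers it was -0.797 to -0.496, again without overlap.

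Among the enzymes of the mevalonate part of the pathway, 4 of 8 were lower and 1 was higher. Hmgcs1, which makes HMG-CoA (gene ID 208715, chromosome 13 of GRCm38, 119690379 to 119708260, plus strand), stood at 110.3 CPM in the lowest, 141 in the median and 186 in the highest sedentary liver, and at 65.8, 70.1 and 80.7 CPM in exercised livers. All exercised livers were below all sedentary livers, and the log2 difference was -1.03 ± 0.14 (SE, n = 6 per group, adjusted p = 5.19e-05). Mvk, the mevalonate kinase (chromosome 5, 114444269 to 114460591), ran from 9.35 over a median of 12.1 to 16.8 CPM in sedentary and from 4.81 over 6.02 to 7.33 CPM in exercised livers. This was a fold of 0.483, again with no overlap (adjusted p = 4.02e-05).

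Mvd, the decarboxylase that makes isopentenyl diphosphate (chromosome 8, 122433601 to 122443422, minus strand), fell furthest. It ranged from 11.2 to 42.0 CPM (median 21.3) in sedentary livers and from 5.68 to 9.74 CPM (median 7.78) in exercised livers, a fold of 0.298 and a log2 difference of -1.75 ± 0.35 (SE, adjusted p = 0.00246). The groups were apart, although sedentary livers differed among themselves by 3.75-fold. Acat2, the cytosolic thiolase of the entry step, fell from a median of 78.9 CPM (53.1 to 96.7) to 49.8 CPM (43.9 to 54.7). Its log2 difference was -0.62 ± 0.14 (SE, adjusted p = 0.00342), and 5 of 6 exercised livers were below the lowest sedentary liver.

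Pmvk, Idi1 and Fdps, the next kinase, the isomerase and the farnesyl diphosphate synthase, did not pass the test. Pmvk had a log2 difference of -0.49 (adjusted p = 0.0517), from a sedentary median of 70.8 CPM (43.2 to 98.3) to 50.1 CPM (42.2 to 55.6). Idi1 had -0.81 (adjusted p = 0.0530), with medians of 15.9 CPM (9.03 to 25.6) and 10.1 CPM (4.49 to 11.1). Fdps had -0.44 (adjusted p = 0.179), with medians of 253 CPM (122 to 340.1) and 171 CPM (147 to 232). Leaving out Sedentary replicate 1 or 5 brought Pmvk past the threshold, replicate 4 or 5 did so for Idi1, and replicate 5 for Fdps. DESeq2 called Pmvk (adjusted p = 0.00797) and Idi1 (adjusted p = 0.0249) on all 12 livers. Upper-quartile scaling, library size alone, limma-voom and the limma fits on FPKM also called both. A minimum of 10 counts in every liver called Pmvk alone. RLE scaling, no filter beyond 1 count and the replicate number as a block called neither.

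Ggps1, the synthase that leads isoprenoids away from sterols and toward protein prenylation, was the only enzyme of the 20 that was higher. It rose from a median of 8.77 CPM (7.85 to 10.3) to 10.6 CPM (9.77 to 11.9), a log2 difference of 0.26 ± 0.081 (SE, adjusted p = 0.0137). The groups overlapped, and with library size alone as the scaling the difference was 0.17 (adjusted p = 0.0916). Ggps1 overlaps Arid4b on the opposite strand, 4.4% of its 50-base stretches also occur in Arid4b or other transcripts on that strand, and Arid4b itself rose by 0.52 on the log2 scale (adjusted p = 0.000278). Whether reads were counted by strand is not given in the sources used here.

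The 3 enzymes from farnesyl diphosphate to lanosterol all had log2 differences below 0. Fdft1, the squalene synthase that commits the pathway to sterols (chromosome 14, 63145150 to 63179578, minus strand), stood at 87.3, 104 and 144 CPM in the lowest, median and highest sedentary liver and at 45.1, 51.0 and 60.1 CPM in exercised livers. The fold was 0.481 with no overlap (log2 difference -1.05 ± 0.12, SE, adjusted p = 8.01e-06). Lss, the cyclase that closes the sterol rings, fell without overlap from a median of 59.8 CPM (44.9 to 83.3) to 34.8 CPM (31.4 to 39.5; adjusted p = 0.000815). Sqle, the epoxidase between them, did not pass (log2 difference -0.68, adjusted p = 0.128), with 24.1 to 95.6 CPM in sedentary and 25.1 to 36.5 CPM in exercised livers. No exercised liver reached below the lowest sedentary liver in Sqle, and without Sedentary replicate 5, that lowest liver, the adjusted p was 0.0492.

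Of the 9 enzymes that turn lanosterol into cholesterol, 6 were lower and the other 3 did not pass the test. Sc5d, the sterol desaturase (chromosome 9, 42251595 to 42264256, minus strand), had the smallest p of all 35 genes. It measured 404, 521 and 634 CPM in the lowest, median and highest sedentary liver and 207, 237 and 265 CPM in exercised livers, a log2 difference of -1.16 ± 0.098 (SE, adjusted p = 2.22e-07). Msmo1, the methyl sterol oxidase, fell from a median of 79.6 CPM (63.7 to 121) to 45.5 CPM (39.1 to 51.1), and Hsd17b7, a ketoreductase of the same demethylation, fell from 33.5 CPM (28.0 to 40.9) to 20.6 CPM (16.3 to 26.7). Neither overlapped between the groups (adjusted p = 0.000606 and 0.000245).

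Nsdhl, the dehydrogenase between these steps, and Dhcr7, the reductase of the final part, were lower with overlapping groups. Nsdhl had a log2 difference of -0.72 ± 0.20 (SE, adjusted p = 0.0124) and Dhcr7 of -0.50 ± 0.12 (SE, adjusted p = 0.00308). Cyp51, the lanosterol demethylase, had -0.50 ± 0.17 (SE, adjusted p = 0.0340), from a median of 85.5 CPM (59.9 to 127) to 61.9 CPM (53.4 to 76.2). Its call was lost without Sedentary replicate 2, 3 or 6, or without Exercise replicate 1, 2, 3 or 6, with adjusted p up to 0.070.

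The remaining enzymes of this stretch, Tm7sf2 and Lbr, which share the reduction of the sterol ring, and Ebp, the isomerase, did not pass the test. Lbr is also an inner nuclear membrane protein. Lbr lay at 5.73 to 7.39 CPM in sedentary and 6.30 to 7.66 CPM in exercised livers, and Ebp at 192 to 233 and 204 to 243 CPM. Their log2 differences were 0.02 ± 0.087 and 0.07 ± 0.059 (SE, adjusted p = 0.865 and 0.367), values that turned to -0.07 and -0.03 with library size alone. Tm7sf2 had -0.12 ± 0.11 (SE, adjusted p = 0.408).

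Because many enzymes moved together, the bases before their starts were read from RefSeq promoter windows on GRCm38.p6 (250 bases before to 50 after the start), which were at hand for 29 of the 35 genes in 37 windows. Fdps, Fdft1, Sqle, Stard4, Npc1 and Soat2 had no window there. The letters TCACNCCA, a form of the sterol regulatory element that SREBPs bind, were searched on both strands and found in 4.4% of all 32851 windows, in 2 of 20 enzyme windows (Hmgcs1 and Msmo1) and in the window of Srebf2. The letters CCAAT, the box of the cofactor NF-Y, were found in 37.4% of all windows, in 16 of 20 enzyme windows (80.0%) and in 24 of the 37 windows. The 20 enzyme windows belong to 17 enzymes, of which 16 had CCAAT letters and 2 had TCACNCCA letters. No match of one overlapped a match of the other in the stretches shown. The stretches below hold the 3 TCACNCCA matches, on the gene's strand and with TCACNCCA and CCAAT (or its reverse complement ATTGG) in capitals. They lie at chr13:119690169-119690266 on the plus strand (Hmgcs1), chr8:64733730-64733759 on the minus strand (Msmo1) and chr15:82147062-82147159 on the plus strand (Srebf2). The Msmo1 stretch is kept shorter because GENCODE vM21 begins the transcript further upstream and places it in the untranslated first exon.
Hmgcs1: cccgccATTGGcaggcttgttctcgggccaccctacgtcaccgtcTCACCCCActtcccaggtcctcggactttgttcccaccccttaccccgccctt
Msmo1: attcTCACTCCAtccgcgcagCCAATgact
Srebf2: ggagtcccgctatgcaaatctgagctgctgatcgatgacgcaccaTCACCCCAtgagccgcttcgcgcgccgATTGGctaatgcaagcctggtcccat

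Mvd and Sc5d, the enzyme with the lowest fold and the enzyme with the smallest p, have CCAAT letters close to the start and no TCACNCCA match in these windows. Their last 150 bases before the start are shown at chr8:122443423-122443572 (Mvd) and chr9:42264301-42264450 (Sc5d), both on the minus strand, with CCAAT or ATTGG in capitals. The matches begin 60 and 27 bases before the start of Mvd and 24 bases before that of Sc5d. CCAAT letters were also in windows of Ggps1, Insig2 and Mylip, which were higher. Lbr, Ebp and Tm7sf2, which did not pass the test, had them too. The part of these letters in the differences was not tested.
Mvd: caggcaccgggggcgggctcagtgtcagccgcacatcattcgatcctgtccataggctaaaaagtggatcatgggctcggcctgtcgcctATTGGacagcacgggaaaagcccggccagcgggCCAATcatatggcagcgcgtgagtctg
Sc5d: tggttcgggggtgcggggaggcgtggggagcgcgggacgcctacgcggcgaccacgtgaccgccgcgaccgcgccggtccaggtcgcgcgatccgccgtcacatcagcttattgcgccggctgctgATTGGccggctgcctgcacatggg

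Part of the enzyme values could hold reads of other transcripts. Of the 50-base stretches in Acat2 transcripts, 39.1% also occur in other genes, most of them in its near copy Acat3, whose own log2 difference was -0.01 (adjusted p = 0.968). The shares were 26.2% for Fdps (mostly Gm43738), 17.7% for Idi1 (mostly Gm13502) and 9.4% for Fdft1 (Gm6781). They were 9.9% for Tm7sf2 (Vps51) and 5.5% for Ggps1 (mostly Gm5630). On the opposite strand 11.6% of the Hmgcs1 stretches occur mostly in Gm48342, and 17.2% of the Fdft1 stretches in Ctsb, which had a log2 difference of 0.04 (adjusted p = 0.626). Opposite-strand shares were also 11.2% for Acat2 (mostly Tcp1), 8.0% for Lbr (mostly Dnah14) and 7.6% for Idi1 (mostly Gm48574). Mvk, Mvd, Sqle, Lss, Msmo1, Nsdhl, Hsd17b7, Ebp and Sc5d shared at most 0.7% on their own strand.

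The sedentary livers were far from uniform in these enzymes. The SD of log2(CPM + 0.5) was wider among sedentary than among exercised livers in 18 of 20 enzymes (90.0%), against 59.1% of all genes tested, with median SDs of 0.355 and 0.146 for the enzymes and 0.157 and 0.139 for all genes. Sedentary replicates 2, 3 and 6 were the 3 highest sedentary livers in 16 of the 20 enzymes. Replicate 3 was highest in 15 enzymes and replicate 5 lowest in 12. Over all genes tested each sedentary liver was among the 3 highest of its group in 48.0% to 50.8% of genes. Among exercised livers replicate 2 was lowest in 10 enzymes.

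**Figure D2:**
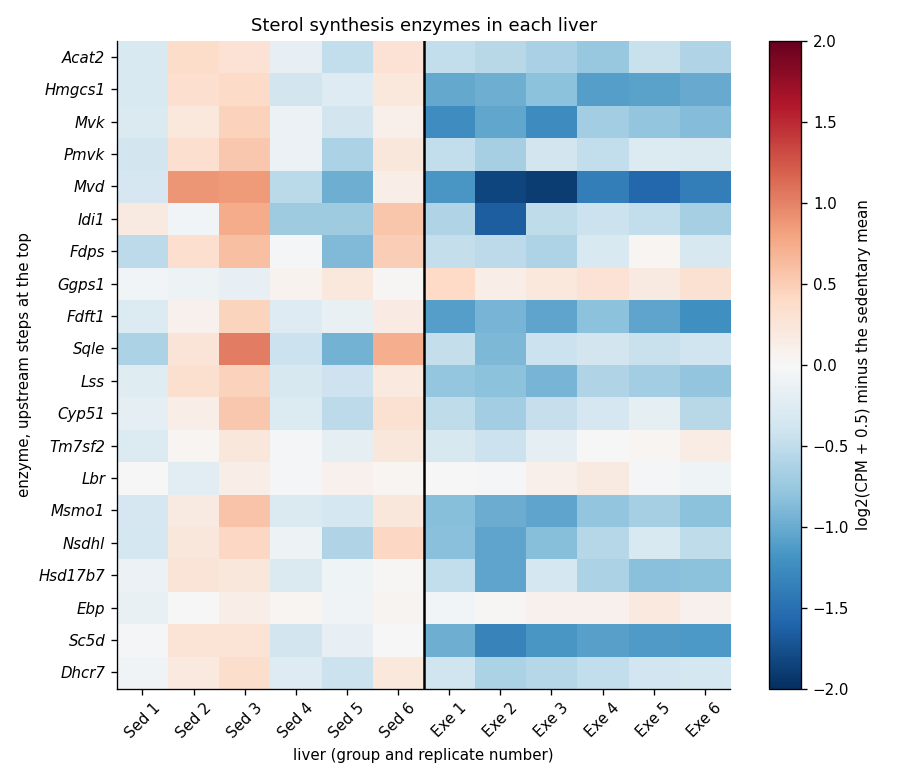
Level of the 20 enzymes (rows) in each of the 12 livers (columns, 6 sedentary left of the line and 6 exercised right of it), as log2(CPM + 0.5) minus the sedentary mean of the enzyme, red above and blue below it. Sedentary replicates 2, 3 and 6 are the 3 highest sedentary livers in 16 enzymes, and the rows of Ggps1, Lbr and Ebp stay near white or pale red on the right.

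The control of SREBP-2 moved unevenly. Srebf2, the gene of SREBP-2 itself and the host of Mir33 (chromosome 15, 82147181 to 82205379, plus strand), did not pass the test, with 33.3 to 48.0 CPM (median 38.2) in sedentary and 30.3 to 38.5 CPM (median 34.9) in exercised livers. Its log2 difference was -0.17 ± 0.081 (SE, adjusted p = 0.0984), and it passed without Sedentary replicate 4 (adjusted p = 0.0362) and with library size alone (adjusted p = 0.0166). Scap, the escort of SREBP-2, was slightly lower, from a median of 70.4 CPM (64.0 to 82.9) to 60.9 CPM (59.9 to 66.1), a log2 difference of -0.21 ± 0.060 (SE, adjusted p = 0.0105).

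The INSIG genes, which encode the proteins that retain SCAP in the endoplasmic reticulum, went in opposite directions. Insig1, itself an SREBP target (chromosome 5, 28071363 to 28078662, plus strand), stood at 296, 365 and 546 CPM in the lowest, median and highest sedentary liver and at 204, 219.5 and 232 CPM in exercised livers. The groups were apart (log2 difference -0.86 ± 0.14, SE, adjusted p = 0.000303). Insig2, whose liver transcript is known to respond to fasting and insulin (chromosome 1, 121304353 to 121332589, minus strand), had 118, 147 and 233 CPM in sedentary and 151, 224 and 270.4 CPM in exercised livers. Its rise of 0.52 ± 0.19 (log2, SE) had an adjusted p of 0.0415 in edgeR's test, and 3 of 6 exercised livers were above the highest sedentary liver. The Insig2 call was lost without Sedentary replicate 1, 2, 3, 4 or 6 and without Exercise replicate 3, 4, 5 or 6, with adjusted p up to 0.0867.

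Within each liver, the log2 ratio of Insig1 to Insig2 counts fell from 1.37 ± 0.63 (SD, n = 6) to 0.016 ± 0.32 (SD, n = 6). Sedentary livers lay between 0.59 and 2.21 and exercised livers between -0.36 and 0.50, without overlap (difference -1.36, exact two-sided permutation test, p = 0.00216, the lowest possible with 6 livers per group, and 0.00866 adjusted over the 4 gene ratios tested). Such a ratio does not depend on the scaling of the libraries. Per transcript length, Insig1 was at 159 ± 44.9 FPKM and Insig2 at 64.6 ± 15.1 FPKM in sedentary livers (SD, n = 6). In exercised livers they were at 81.2 ± 3.22 and 87.2 ± 16.8 FPKM, a gap smaller than the SD of Insig2.

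**Figure D3:**
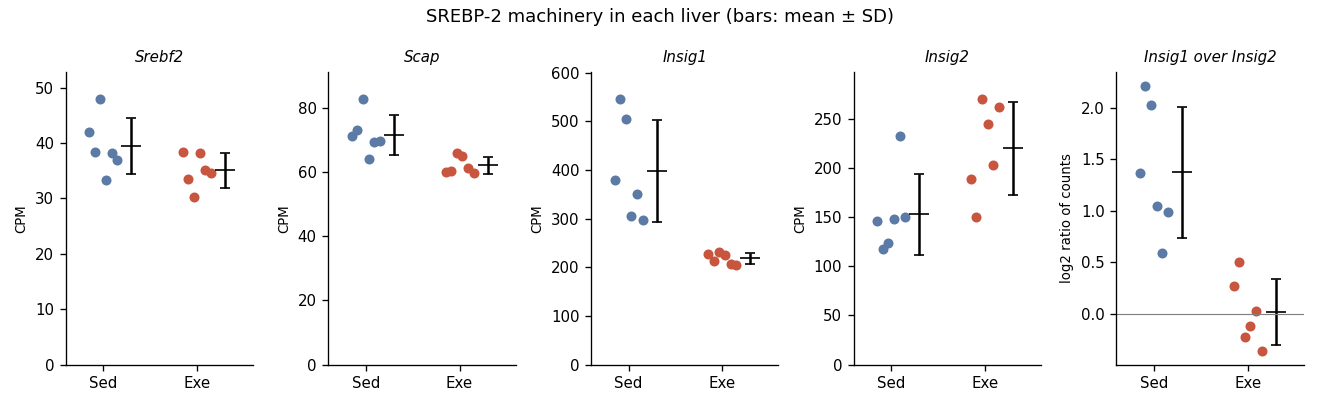
Level of Srebf2, Scap, Insig1 and Insig2 in CPM (y axes from 0) and the log2 ratio of Insig1 to Insig2 counts (right) in 6 sedentary and 6 exercised livers, each point a liver and each bar the mean ± SD. Insig1 and the ratio do not overlap between the groups, and Insig2 of Sedentary replicate 5 lies at 233 CPM among the exercised livers.

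Of the genes for uptake and movement inside the cell, Mylip rose and Stard4 fell. Mylip encodes the ubiquitin ligase IDOL, an LXR target that marks lipoprotein receptors for degradation (chromosome 13, 45389742 to 45412022, plus strand). It measured 5.82, 6.35 and 8.72 CPM in the lowest, median and highest sedentary liver and 9.96, 12.0 and 17.9 CPM in exercised livers, a fold of 1.94 without overlap (log2 difference 0.96 ± 0.15, SE, adjusted p = 8.59e-05). Stard4, a soluble sterol carrier under SREBP-2 control (chromosome 18, 33199355 to 33213862, minus strand), went from a median of 63.6 CPM (51.2 to 76.1) to 36.5 CPM (30.7 to 40.5). Its log2 difference of -0.83 ± 0.085 (SE, adjusted p = 9.39e-07) was again free of overlap.

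Npc1 and Npc2, which release cholesterol from lysosomes, changed little. Npc1 rose from a median of 71.9 CPM (60.3 to 83.6) to 82.8 CPM (75.2 to 89.1), a log2 difference of 0.19 ± 0.069 (SE, adjusted p = 0.0337). The Npc1 call was lost without Sedentary replicate 2, 3, 4 or 6 or Exercise replicate 2, 3 or 5 (adjusted p up to 0.0814), and with library size alone (adjusted p = 0.284). Npc2 lay at 48.3 to 56.9 CPM and 51.8 to 58.0 CPM (log2 difference 0.04 ± 0.053, SE, adjusted p = 0.568), and its sign turned with library size alone (-0.05).

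The esterification enzymes, which store cholesterol as esters, were Soat2, the form of hepatocytes, and Soat1, the form of macrophages and many other cells. Soat2 (chromosome 15, 102150526 to 102163469, plus strand) fell from a median of 28.1 CPM (24.3 to 30.2) to 20.1 CPM (16.5 to 22.5) with no overlap, a log2 difference of -0.47 ± 0.079 (SE, adjusted p = 0.000118). Soat1 was near the lower limit of the assay at 0.765 to 1.34 CPM in sedentary and 1.01 to 2.15 CPM in exercised livers, and its difference of 0.38 ± 0.21 (log2, SE) did not pass (adjusted p = 0.156). The log2 ratio of Soat1 to Soat2 counts went from -4.74 ± 0.35 to -3.89 ± 0.51 (SD, n = 6), a difference of 0.85 (two-sided exact permutation test, p = 0.00433, adjusted p = 0.00866). The groups overlapped in this ratio.

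Among LXR and the export genes, 1 of 5 changed. Abca1, which loads cholesterol onto nascent HDL and is an LXR target (chromosome 4, 53030787 to 53159895, minus strand), fell from a median of 131 CPM (115 to 158) to 102 CPM (89.7 to 109). Every exercised liver was below every sedentary liver (log2 difference -0.42 ± 0.076, SE, adjusted p = 0.000269). The receptors themselves, Nr1h3 (LXR alpha) and Nr1h2 (LXR beta), did not pass the test, with log2 differences of -0.13 ± 0.069 and 0.09 ± 0.059 (SE, adjusted p = 0.141 and 0.245). With library size alone Nr1h3 passed (-0.23, adjusted p = 0.0342) and Nr1h2 turned to -0.01. Their ratio within a liver, which has no scaling, fell by 0.22 on the log2 scale, from 1.59 ± 0.13 to 1.38 ± 0.14 (SD, n = 6, two-sided exact permutation test, p = 0.00649, adjusted p = 0.00866). Only 1 exercised liver, at 1.52, lay above the lowest sedentary liver at 1.49.

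**Figure D4:**
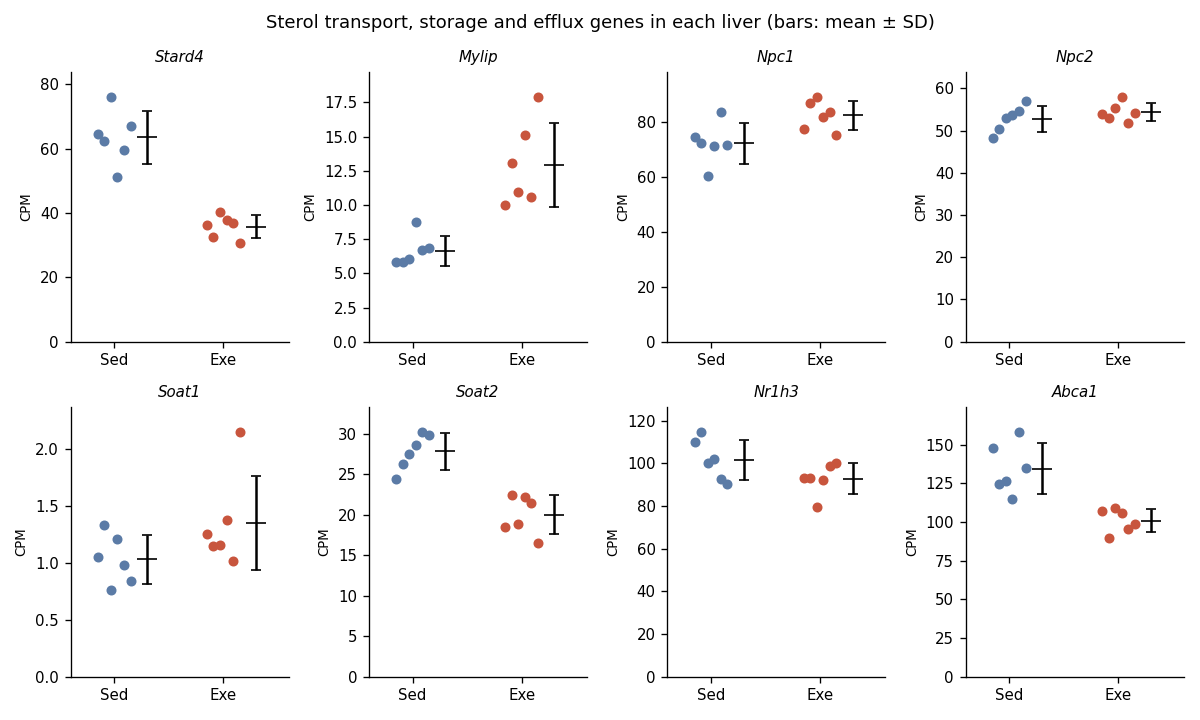
Level in CPM (y axes from 0) of 8 genes of sterol transport, storage and efflux in 6 sedentary and 6 exercised livers, each point a liver and each bar the mean ± SD. Stard4, Mylip, Soat2 and Abca1 do not overlap between the groups, while Npc1, Npc2, Soat1 and Nr1h3 do.

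Abcg5 and Abcg8 encode the partner subunits of the pump that sends sterols into bile, and both are LXR targets. Abcg5 lay at 35.9, 48.6 and 98.7 CPM in the lowest, median and highest sedentary liver and at 42.1, 50.6 and 64.8 CPM in exercised livers. Abcg8 lay at 33.6, 44.8 and 118 CPM and at 45.4, 61.6 and 83.6 CPM. Exercised livers sat inside the sedentary range, and neither gene passed the test (log2 differences -0.16 ± 0.24 and 0.11 ± 0.31, SE, adjusted p = 0.632 and 0.810). Their sign turned when 1 liver was left out, Abcg5 to 0.07 without Sedentary replicate 5 and Abcg8 to -0.00 without Sedentary replicate 2.

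Sedentary replicates 5 and 4 carried the high values of both transporters, at 98.7 and 69.1 CPM of Abcg5 and 118 and 68.0 CPM of Abcg8. Replicate 5 was also the lowest sedentary liver in 12 of the 20 synthesis enzymes and the highest in Insig2. Replicates 2 and 3, which had the highest summed enzymes, had the lowest Abcg5 and Abcg8 of the group. The other sedentary livers, replicates 1 and 6, did not follow this order. Their summed enzymes were 1681.3 and 2247.8 CPM, while their Abcg5 (47.2 and 49.9 CPM) and Abcg8 (43.8 and 45.8 CPM) were close. A relation between enzymes and transporters was not tested. The ratio of Abcg5 to Abcg8 counts was steadier than either gene and fell by 0.32 on the log2 scale, from 0.05 ± 0.19 to -0.27 ± 0.12 (SD, n = 6, two-sided exact permutation test, p = 0.00866, adjusted p = 0.00866). The groups overlapped, with Sedentary replicate 5 at -0.26 inside the exercised range of -0.41 to -0.11.

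The genes start back to back on chromosome 17, Abcg5 at 84658234 to 84683011 on the minus strand and Abcg8 at 84676302 to 84700333 on the plus strand. An annotated Abcg8 transcript reaches into Abcg5, and 1.2% of the Abcg5 and 0.9% of the Abcg8 50-base stretches occur in the other gene on the opposite strand. The 109 bases between their RefSeq starts (chr17:84683012-84683120, plus strand) are shown because the genes share them as upstream sequence. They held no TCACNCCA or CCAAT letters. Outside these bases the windows of both genes did hold CCAAT letters, directly at the Abcg5 start and 175 and 114 bases before the Abcg8 start.
Abcg5 and Abcg8: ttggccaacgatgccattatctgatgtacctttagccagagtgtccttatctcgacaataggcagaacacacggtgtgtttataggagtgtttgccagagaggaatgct

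**Figure D5:**
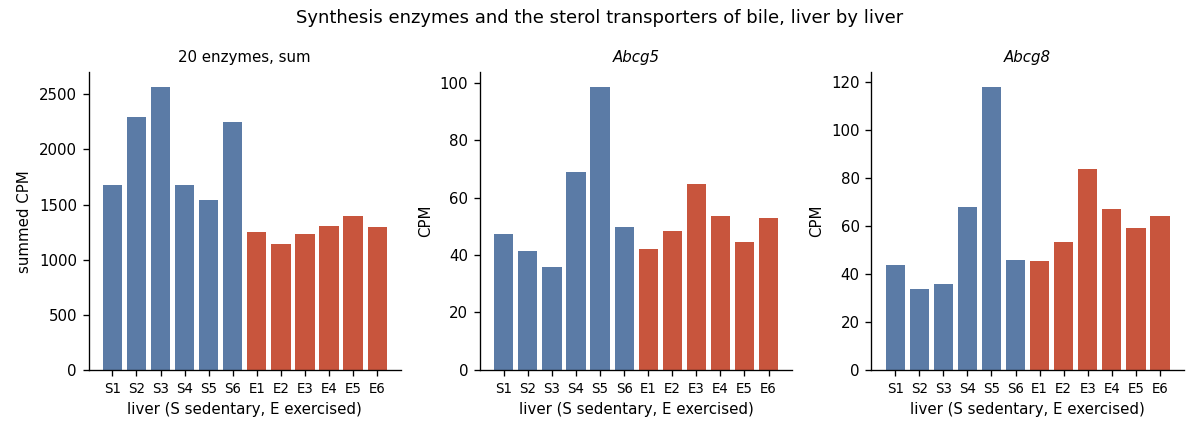
Summed CPM of the 20 synthesis enzymes (left) and CPM of Abcg5 and Abcg8 (middle and right) in each liver, bars from 0, sedentary livers S1 to S6 and exercised livers E1 to E6. The enzyme sum is highest in S3 at 2570.2 CPM and lowest among sedentary livers in S5 at 1543.5 CPM, where Abcg5 and Abcg8 are highest at 98.7 and 118 CPM.

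Levels of different genes can be compared on the FPKM scale, which divides by transcript length. In sedentary livers the order began with Fdps at 206 ± 77.8, Sc5d at 194 ± 30.9, Insig1 at 159 ± 44.9 and Ebp at 129.6 ± 9.77 FPKM (SD, n = 6), and it ended with Ggps1 at 2.05 ± 0.315, Lbr at 1.98 ± 0.122 and Soat1 at 0.230 ± 0.054 FPKM. Fdps and Sc5d differed by less than the SD of Fdps. In exercised livers the order was Fdps at 141 ± 26.5, Ebp at 127 ± 8.54, Insig2 at 87.2 ± 16.8, Sc5d at 84.7 ± 6.50 and Insig1 at 81.2 ± 3.22 FPKM. Mvd moved from rank 22 to rank 30 of the 35, and Soat1 stayed at rank 35.

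Other genes of the pathway, 64 in 5 lists of which 63 could be tested, changed in 28 cases (44.4%, against 42.4% of all genes). Proteins that hand electrons to the sterol enzymes or help them in the endoplasmic reticulum had the highest share among these lists, with 8 of 10 changed, 7 lower and 1 higher. Tmem97, an SREBP target and sterol binder, went from 70.9 ± 7.02 to 47.8 ± 2.60 CPM (SD, n = 6), and Cyb5b, a cytochrome b5, from 418 ± 42.7 to 294 ± 23.5 CPM (adjusted p = 3.42e-06 and 3.12e-05). The gene that rose was Por, the reductase that feeds electrons to Sqle, Cyp51 and the drug-metabolizing cytochromes, named here after its value was seen, at 330.3 ± 87.2 and 784 ± 88.1 CPM (log2 difference 1.25, adjusted p = 3.34e-05).

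Of 15 genes for SREBP cleavage and sterol-regulated protein degradation, 3 changed and all were higher. This was a smaller share than the 42.4% of all genes that changed. Ube2g2, a ubiquitin-conjugating enzyme of the endoplasmic reticulum, rose from 41.3 ± 2.93 to 74.4 ± 6.65 CPM (SD, n = 6, log2 difference 0.85, adjusted p = 6.20e-08). Spring1, a factor needed for SREBP cleavage that the table lists under an older symbol, rose from 5.66 ± 0.675 to 9.71 ± 1.34 CPM (log2 difference 0.78, adjusted p = 1.39e-05). The third was Nploc4, named after its value was seen, with a log2 difference of 0.28 and overlapping groups (adjusted p = 0.00830). The proteases Mbtps1 and Mbtps2 had -0.04 and -0.06 and did not pass.

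Of 6 further LXR targets 3 changed, where 42.4% of all genes changed, and a list of 6 genes is too small to tell these shares apart. All 3 were lower, namely Srebf1, Lpcat3 and Scd1, of which Srebf1 and Scd1 also belong to fatty acid synthesis. Srebf1 went from 499 ± 86.6 to 130.4 ± 25.2 CPM (SD, n = 6, log2 difference -1.94, adjusted p = 3.73e-07). Lpcat3, which remodels membrane phospholipids, went from 132 ± 10.9 to 87.0 ± 1.95 CPM (log2 difference -0.60, adjusted p = 3.89e-07), and Scd1 fell by 0.53 on the log2 scale (adjusted p = 0.00110). Abcg1, the partner of Abca1 in efflux, had -0.23 and did not pass. Beside them stand Abca1, which fell, and Mylip, which rose, although both are LXR targets too.

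Of 17 tested genes for other sterol uptake and transfer, 9 changed (52.9%, against 42.4% of all genes), in both directions. Nceh1, which splits cholesterol esters in the endoplasmic reticulum, fell from 15.4 ± 3.07 to 6.59 ± 1.66 CPM (SD, n = 6, log2 difference -1.22, adjusted p = 6.38e-05), and Lipa, the lysosomal ester hydrolase, fell by 0.26 on the log2 scale (adjusted p = 0.00199). Osbpl2, a lipid transfer protein, rose by 0.33 (log2, adjusted p = 0.000287). Of 15 isoprenoid branch enzymes 5 changed (33.3%, against 42.4% of all genes). Rabggta (-0.41), Dolk (-0.37) and Pdss1 (-0.43) were lower, and Nus1 (0.32) and Icmt (0.25) were higher on the log2 scale. The call of Icmt was lost on the log2(FPKM + 1) scale (0.13, adjusted p = 0.0503, limma). Only Rabggta, a subunit of the enzyme that prenylates Rab proteins, and Icmt, which methylates prenylated proteins, did not overlap between the groups, and Dolk, Pdss1 and Nus1 were named after their values were seen.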

How the data were processed

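mRNA libraries of 12 mouse livers were analysed, 6 per group as the sample labels give them. The authors deposited, for each of 17432 genes, estimated counts that are not scaled between libraries (31.3% are not whole) and FPKM values scaled for transcript length and depth. The submitters' processing notes name Bowtie2 2.3.4.3, RSEM 1.3.1 and mm10, and neither the strand setting nor a test for the sequencing is given in the sources used here. The labels number separate livers, so the p-values set the group difference against the spread between these livers.

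Rounded counts entered a quasi-likelihood fit with robust dispersions (edgeR 4.0.16 under R 4.3.3), whose single factor was the group. Library factors were TMM, filterByExpr removed genes by its default minimum of 10 counts, and Benjamini-Hochberg adjustment ran over the 12344 genes left, with 0.05 as the threshold. Every adjusted p without another name is from this fit. The biological coefficient of variation was 11.3%. Count ratios of 4 gene pairs (count + 0.5) were compared by an exact permutation test over all 924 relabellings. At depths of 18745379 to 19324461 counts, counting error weighs most on genes of few counts. These include Soat1 near 1 CPM and also Lbr at 5.73 to 7.66 CPM over both groups. The size of counting error against the differences among livers was not worked out gene by gene. No pair of libraries was identical or agreed within counting noise.

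The members, gene lists, pairs and tests were chosen with earlier results of these data known. All members are named, and of each pathway list the 3 changed genes with the smallest p whose groups did not overlap, except 1 gene that is not reported here. Gene positions and shared 50-base stretches come from GENCODE vM21 (GRCm38), promoter windows from RefSeq (GRCm38.p6). Alternatives were other scalings and filters, DESeq2 1.42.0, limma 3.58.1 (voom, and log2(FPKM + 0.1) or log2(FPKM + 1)), a threshold of 0.01, the replicate number as a block, and leaving out each liver. Permutation tests ran in Python 3.11.15, and scipy 1.17.1 adjusted their p-values over the 4 gene ratios. The edgeR fit was first tested on simulated counts with known changes, and the DESeq2 and limma fits were not.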

Additional observations from a re-analysis of the deposited data

Results flagged for a closer look

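In 5 of 70 groups of 6 livers (35 genes in each of 2 conditions), 1 liver lay far from the other 5 by Dixon's rule, which sets the gap to the nearest liver against the whole range of the group. Chance would give about 3.5 such groups. Exercise replicate 2 was low in Sqle at 25.07 CPM (nearest 33.65 CPM, gap 0.752 of the range) and in Idi1 at 4.492 CPM (nearest 9.39 CPM, 0.744). Sedentary replicate 5 was high in Insig2 at 232.7 CPM (nearest 149.8 CPM, 0.723), and without it the log2 rise of Insig2 was 0.69, the highest of the 12 values that leave out 1 liver. Exercise replicate 6 was high in Soat1 at 2.154 CPM (nearest 1.377 CPM, 0.68). Sedentary replicate 4 was high in Mylip at 8.723 CPM (nearest 6.854 CPM, 0.644).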

How the results depend on the processing

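Of 420 values of single sterol genes with 1 liver left out, 386 kept their direction and side of the threshold, 23 calls were lost, 7 were gained and 4 changed sign. Of 385 values under the other settings, 342 kept both, 16 calls were lost, 17 were gained and 10 changed sign. With 1 liver left out, 18 to 25 of the 35 genes changed (2 to 4 higher, 16 to 21 lower), 12 to 17 of the 20 enzymes (1 higher in each case), 6 to 8 of the other 15 genes (1 to 3 higher) and 6 to 9 of the 17 uptake and transfer genes. Library size alone, log2(FPKM + 0.1) and log2(FPKM + 1) each left 2 higher genes and 0 higher enzymes, since the call of Ggps1 was lost. The call of Icmt was lost with log2(FPKM + 1) (0.13, adjusted p = 0.0503, limma). The FPKM fits gave 1711 and 1714 higher genes in all and 5 uptake and transfer genes each. At an adjusted p under 0.01 there was 1 higher gene and 0 higher enzymes, 5 of the other 15 genes changed (1 higher), and 4 uptake and transfer genes did. In the order library size alone, log2(FPKM + 0.1) and log2(FPKM + 1), the log2 difference turned to -0.073, -0.069 and -0.048 for Lbr, to -0.026, -0.025 and -0.025 for Ebp, and to -0.055, -0.053 and -0.051 for Npc2, and library size alone gave -0.0077 for Nr1h2. Library size alone moved the median of all genes from -0.003 to -0.098. With 1 liver left out, Lbr ran from -0.021 to 0.051, Abcg5 from -0.26 to 0.071 and Abcg8 from -0.0048 to 0.45, and Lbr was -0.0079 without Exercise replicate 4. The cause of these turns was not tested.

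The replicate numbers did not pair the livers: same-numbered livers correlated at -0.099 to 0.16, and 2 of 6 correlated best with their own number. With the number as a replicate block 4956 genes and 19 sterol genes were called, without Cyp51 and Nsdhl (adjusted p = 0.124 and 0.0633, edgeR), and the Nr1h3 to Nr1h2 difference of -0.22 had a paired exact permutation p of 0.0625, where 0.03125 is the smallest possible. Depth limits Soat1, near 1 CPM, most.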
